A study of Mus musculus with 200 samples.

Results

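The imprinted genes described here are 31 mouse genes that are expressed from only 1 of the parental alleles in at least some tissues. They were taken by symbol from a list of well-known imprinted genes, which was chosen with earlier results of these data known. All 31 have a row among the 25229 symbols of the series, and 30 have a row in each of its 7 expression tables. Snrpn is listed in 3 of the tables. By textbook knowledge 10 of the genes are expressed from the maternal allele, 20 from the paternal allele, and Gnas from either allele, depending on the transcript.

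The series holds 200 Smart-seq2 libraries in 70 groups, each library made from about 10 to 100 mouse cells. It asks which factors act on chromatin around the time of implantation. Embryos were cultured from the blastocyst through the peri-implantation period and the labelled epiblast (Epi) or primitive endoderm (PrE) was taken. Values are TPM, a measure of transcript abundance that is scaled for transcript length, so levels of different genes can be set side by side.

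The first table compares wild-type Epi and PrE at E5.0 with Epi and PrE of embryos in which the Polycomb genes Suz12 and Eed were both knocked out by C-CRISPR, a method that cuts 1 gene at several sites in the zygote so that the embryo itself carries the knockout. A further 2 tables, at E4.5 and at E5.0, hold wild-type Epi and Epi treated with GSK-J4. This compound inhibits KDM6A and KDM6B, enzymes that remove H3K27 methylation. It was used at 50 µM from E3.5 on for E5.0, and no dose was found in the labels for E4.5. Zbtb17, which encodes the transcription factor MIZ1, was perturbed in Epi at E4.5, in Epi at E5.0 with a dTAG degradation ligand, and in embryoid bodies (EB) at days 0, 1, 2 and 3. The titles at E4.5 say knockout while another field says dTAG treatment. The knockout EB carry the line name ZB11 and may be a single line. The largest table is a screen of Epi at E5.0 in 10 batches, each with its own wild-type controls, in which Zfp57, Suz12, Ezh2, Jarid2, Zbtb17 and other regulators were knocked out. The titles of batch 8 (a Bend3 knockout and its controls) read 6.0, while their stage label says E5.0. Groups held 3 libraries apart from 2 in each EB group and in 2 screen groups. Strain and sex were not in the labels used here.

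Imprinted genes carry DNA methylation on 1 parental allele, placed in the egg or the sperm and kept through the reprogramming that follows fertilization. ZFP57 and its co-factor TRIM28 bind the methylated copy of these imprinting control regions and hold the mark in place. Polycomb repressive complex 2 (PRC2), with the subunits EED and SUZ12, the methyltransferase EZH2 and the accessory subunit JARID2, deposits H3K27 methylation. In the placental lineage this mark helps to silence the paternal copies of the Kcnq1ot1 neighbourhood, which includes Cdkn1c, Phlda2 and Slc22a18.

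Values on both alleles were summed in these libraries, so no statement on allelic use can be made. Smart-seq2 does not mark the strand, so a member that overlaps exons of a gene on the opposite strand may hold reads of both. Such members are Kcnq1ot1 (Kcnq1), Mest (Copg2), Zrsr1 (Commd1), Gnas (Nespas), Igf2 (Igf2os), Usp29 (Zim3), Cdkn1c (Gm44732) and Meg3 (Gm26906). H19, Rtl1, Snrpn, Plagl1, Nnat and Zdbf2 also overlap annotated exons on the opposite strand. In bulk libraries, fewer cells of a type and less RNA per cell cannot be told apart.

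Promoter sequence is shown for 4 members on which the results turn. Phlda2 and Slc22a18 are neighbours on chromosome 7 that both rose in the Suz12 Eed double knockout and in the Suz12 knockout, while Igf2r fell in the double knockout PrE. Each sequence is the 250 bases before the RefSeq transcription start on GRCm38.p6, written 5′ to 3′ on the strand of the gene, and capitals mark CG dinucleotides. The Phlda2 window lies at chr7:143502525-143502774 on the minus strand and holds 21 CG. The Slc22a18 window lies at chr7:143473539-143473788 on the plus strand and holds 0 CG. The Igf2r window lies at chr17:12769707-12769956 on the minus strand and holds 27 CG.
Phlda2: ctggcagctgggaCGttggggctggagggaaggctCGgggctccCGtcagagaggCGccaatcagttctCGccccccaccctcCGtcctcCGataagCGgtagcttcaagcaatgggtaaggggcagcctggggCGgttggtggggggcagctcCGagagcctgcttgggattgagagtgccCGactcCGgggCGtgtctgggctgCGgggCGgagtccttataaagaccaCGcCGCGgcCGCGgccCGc
Slc22a18: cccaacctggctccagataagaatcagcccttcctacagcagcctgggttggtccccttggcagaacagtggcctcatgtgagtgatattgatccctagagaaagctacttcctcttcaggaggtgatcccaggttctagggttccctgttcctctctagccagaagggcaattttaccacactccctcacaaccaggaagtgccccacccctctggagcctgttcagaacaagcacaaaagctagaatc
Igf2r: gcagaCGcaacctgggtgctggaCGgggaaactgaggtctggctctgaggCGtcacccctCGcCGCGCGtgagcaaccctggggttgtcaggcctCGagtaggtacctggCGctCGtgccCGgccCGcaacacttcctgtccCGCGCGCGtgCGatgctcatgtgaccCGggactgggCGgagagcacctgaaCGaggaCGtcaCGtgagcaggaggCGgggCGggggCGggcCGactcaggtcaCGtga
Of 32851 such windows genome-wide, 17.9% held 20 or more CG and 29.0% held 2 or fewer. The 2 neighbours thus stood at opposite ends of this range.

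Mest fell in the Zfp57 knockout, and also in the Ezh2 and Kdm6b knockouts that share its controls. It is shown for the hexamer TGCCGC, the sequence that ZFP57 recognizes when its CG is methylated. The window shown was picked because no other window of Mest holds more copies, and it lies at chr6:30737800-30738049 on the plus strand. Capitals mark the hexamer, read here on the reverse strand as GCGGCA, which occurs in the window 2 times.
Mest: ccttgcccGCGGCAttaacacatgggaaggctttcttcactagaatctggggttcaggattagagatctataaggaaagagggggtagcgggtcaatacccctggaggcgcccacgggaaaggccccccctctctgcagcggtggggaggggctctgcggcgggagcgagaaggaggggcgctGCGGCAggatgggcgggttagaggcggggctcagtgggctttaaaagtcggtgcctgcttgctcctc
Counting both strands, the hexamer was found in 8 of 39 windows of members (20.5%), belonging to Mcts2, Meg3, Mest, Nap1l5, Plagl1, Zdbf2 and Zim1, against 8.68% of all windows. Mest has 3 windows: that at chr6:30733256-30733505 holds 0 copies, and that at chr6:30737803-30738052 overlaps the window shown almost wholly, so that the same copies count in both. It contains a CG, and windows of members held a median of 10 CG against 6 in all windows. A match is a description of these letters only. There were windows for 25 members, and none for H19, Cdkn1c, Rtl1, Peg10, Sgce and Impact.

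A gene was tested with limma on log2(TPM + 1) if the number of libraries in which it reached 1 TPM was no less than the size of the smaller group. It is said to rise or fall where its p-value, adjusted over all genes tested in the comparison, was under 0.05. Log2 differences are on that scale and understate changes of genes at low levels. The labelled tissues were checked first. In the controls of the Suz12 Eed table the summed level of 15 PrE markers was 6184 to 6823 TPM in PrE and 372 to 580 TPM in Epi, and all 15 rose in PrE against Epi. The 10 epiblast markers summed to 1809 to 2465 TPM in Epi and 253 to 283 TPM in PrE. Trophoblast markers were not absent from Epi: the 17 genes summed to 1572 to 1706 TPM there, and to between 2372 and 8946 TPM in 9 of 10 batches of screen controls. Batch 8 controls stood apart at 359 to 540 TPM. PrE controls 1 and 2 were nearly alike (r = 0.997 of log2 values) and were counted as 1 library, which leaves 2 PrE controls. The number of genes at 1 TPM or more was 3986 to 4952 in the Zbtb17 E4.5 table, 5970 to 6983 in the day 0 EB and 7236 to 13512 in all other libraries.

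In unperturbed Epi of the screen, Phlda2 and H19 had the highest medians of batch means among the members. Over 29 control libraries the lowest, median and highest level of Phlda2, a PH-domain protein that restrains placental growth, was 50.2, 655 and 1473 TPM. H19, a non-coding RNA expressed opposite to Igf2, had a lowest, median and highest level of 4.85, 341 and 686 TPM. Both were lowest in batch 8, whose titles read 6.0, with batch means of 59.99 and 7.94 TPM. Gnas, a signalling gene, had its highest batch mean there, 431 TPM. By the median of batch means, Mest, Gnas and Mcts2 stood between 20 and 100 TPM. Impact, Cdkn1c, Igf2, Meg3, Grb10, Igf2r, Peg3 and Nnat stood between 5 and 20 TPM. A further 6 genes (Rian, Sgce, Mirg, Ndn, Zrsr1 and Slc22a18) stood between 1 and 5 TPM. The other 11 stood under 1 TPM, with Magel2, Zim1 and Plagl1 at a median of 0. Neighbours in this order often did not differ beyond the spread of batches: batch means of Igf2 ran from 0.502 TPM (batch 8) to 327 TPM (batch 7). Batch 7 also stood apart: the 10 highest genes held 24.1% to 36.6% of TPM in its libraries, beside 7.51% to 7.60% in batch 1 controls.

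Epi and PrE of wild-type embryos differed in most imprinted genes. Of 21 members tested, 9 were higher and 8 lower in PrE. Of all genes tested, 56.4% were called, with 18.5% higher and 37.9% lower. Igf2r, the receptor that clears IGF2, read 274 and 228 TPM in PrE and 15.2, 9.24 and 18.6 TPM in Epi (log2 4.08 ± 0.31 SE, adjusted p = 4.99e-08). The groups lay far apart, with every PrE library above every Epi library. Rian, a non-coding RNA of the Dlk1-Meg3 cluster, read 46.7 and 42.1 TPM in PrE and 2.25, 3.71 and 3.54 TPM in Epi (log2 3.46). Impact, a regulator of the GCN2 stress kinase, read 1338 and 898 TPM in PrE and 152, 123 and 219 TPM in Epi (log2 2.77). These 2 genes likewise had no overlap. Grb10, an adaptor that damps insulin and IGF signalling, read 47.9 and 54.7 TPM in PrE and 7.23, 9.5 and 11.8 TPM in Epi (log2 2.34). The reverse order was seen for H19 (log2 -3.003), for the cell cycle inhibitor gene Cdkn1c (-2.84), for the membrane proteolipid gene Nnat (-2.83) and for Phlda2 (-2.64). Mest, an enzyme of the hydrolase fold, read 11.8 and 8.4 TPM in PrE and 43.5, 110 and 43.2 TPM in Epi (log2 -2.46). Members expressed from the same parental allele were found on both sides, with 4 maternal genes higher and 4 lower, and the same numbers for paternal genes.

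**Figure D1:**
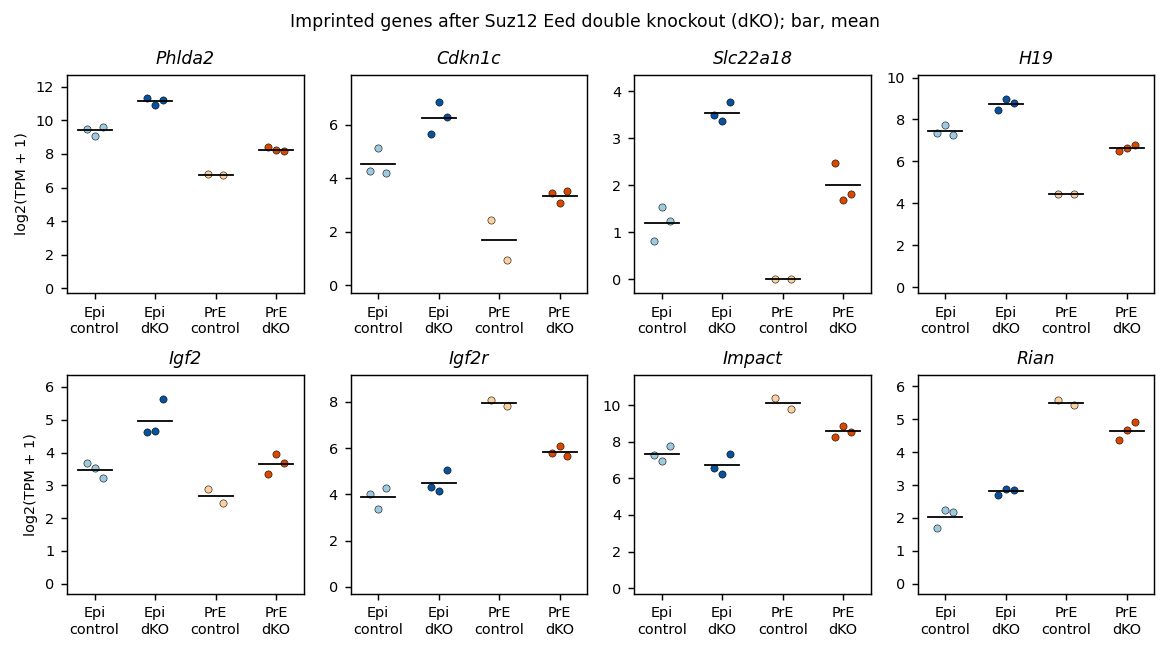
Levels of imprinted genes in Epi and PrE with and without Suz12 and Eed, as log2(TPM + 1) on the vertical axis, with a point for each library and a bar at the mean of each group. Phlda2 and H19 are higher in the double knockout in both tissues. In PrE, Igf2r is at 228 and 274 TPM in the controls and at 49 to 67.2 TPM in the double knockout.

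Loss of Suz12 and Eed raised 5 imprinted genes in Epi, all in the 2 neighbouring clusters of distal chromosome 7, and lowered 0. The targeted transcripts were lower: Eed read 44.8, 38.9 and 51.8 TPM against 177, 157 and 204 TPM (adjusted p = 3.92e-06), and Suz12 read 10.3, 7.34 and 18 TPM against 24.6, 20.5 and 28.8 TPM (adjusted p = 0.029). Neither was at 0. The 5 of 20 members tested compare with 4.48% of all genes called higher and 4.65% called lower (9.13% together). Their median log2 difference was 0.17, against -0.13 over all genes. Of maternal genes 4 of 9 rose and of paternal genes 1 of 10.

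Phlda2 (chr7:143501545-143503150, minus strand) read 2584, 1903 and 2362 TPM in the double knockout Epi and 724, 538 and 791 TPM in the controls (log2 1.74 ± 0.15 SE, adjusted p = 5.05e-06). Its neighbour Slc22a18 (chr7:143473736-143499334, plus strand), an organic cation transporter gene, read 10.2, 9.24 and 12.6 TPM against 0.766, 1.9 and 1.35 TPM (log2 2.34 ± 0.34, adjusted p = 0.000471). Every double knockout library exceeded every control for both genes. Cdkn1c (chr7:143458339-143461050, minus strand), the third gene of this neighbourhood, read 48.9, 115 and 77.1 TPM against 18.3, 34 and 17.1 TPM (log2 1.74 ± 0.39, adjusted p = 0.0123). Here too the groups did not overlap, though the double knockout libraries spread more widely. The Cdkn1c call was lost when Epi control 1, Epi control 3 or double knockout library 2 was left out (highest adjusted p 0.0572). It was also lost with a pseudocount of 0.1 (adjusted p = 0.0503) and without the filter on low values (adjusted p = 0.0613).

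The other 2 genes belong to the H19-Igf2 cluster farther along the chromosome. H19 (chr7:142575529-142578143, minus strand) read 351, 509 and 447 TPM against 163, 214 and 150 TPM (log2 1.31 ± 0.18, adjusted p = 0.000295). Igf2 (chr7:142650766-142666816, minus strand), which encodes a fetal growth factor, read 23.9, 24.1 and 48.5 TPM against 11.8, 10.5 and 8.35 TPM (log2 1.495 ± 0.30, adjusted p = 0.00661). Both members of a pair that is usually used from opposite alleles were thus higher without overlap. Kcnq1ot1, the non-coding RNA of the cluster that holds Cdkn1c, Phlda2 and Slc22a18, was too low to be tested. Paternal genes elsewhere gave values with no call: Nnat read 1.43, 4.98 and 4.31 TPM against 5.45, 13.4 and 6.51 TPM (log2 -1.059, adjusted p = 0.122).

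Of other imprinted genes 1 of 17 fell (Inpp5f) and 0 rose, and of 5 genes imprinted through H3K27 methylation rather than DNA methylation (called noncanonical) 0 passed. Among 19 imprint maintenance factors 6 fell, namely Daxx, Dnmt3a, Dnmt3b, Dnmt3l, Hells and Uhrf1. Dnmt3b, a de novo DNA methyltransferase gene that also serves as an epiblast marker here, was at 79.6 to 98.5 TPM against 210 to 302 TPM. The trophoblast markers moved in the same libraries as Phlda2: their sum was 6341 to 7384 TPM in the double knockout Epi against 1572 to 1706 TPM, and 8 of 16 tested were higher. The epiblast marker sum was 936 to 1143 TPM against 1809 to 2465 TPM, and 5 of 10 were lower. Their part in the rise of the distal chromosome 7 genes was not tested.

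In PrE the same double knockout raised 6 members and lowered 4 of 23 tested, where 21.4% of all genes tested were higher and 5.18% lower (26.6% together). The median over members was 0.47, beside 0.40 over all genes. Without PrE control 3, 6 members passed. Eed read 53.5, 63.5 and 49.7 TPM against 160 and 171 TPM, and Suz12 read 17.5, 14.5 and 13.1 TPM against 28.4 and 30.3 TPM. H19 read 88.8, 99.2 and 108 TPM in the double knockout and 20.6 and 20.9 TPM in the controls (log2 2.19 ± 0.20, adjusted p = 6.61e-06). Phlda2 read 336, 295 and 286 TPM against 110 and 105 TPM (log2 1.496 ± 0.17, adjusted p = 4.4e-05). Neither gene's groups overlapped.

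Slc22a18 read 4.59, 2.23 and 2.5 TPM and was listed at 0 in both controls (adjusted p = 0.00141). Cdkn1c read 9.88, 7.32 and 10.5 TPM against 4.38 and 0.907 TPM (log2 1.66, adjusted p = 0.0117). The Cdkn1c call was lost with quantile normalization (adjusted p = 0.0502). Without the averaged PrE control, which left 1 PrE control, the log2 difference of Cdkn1c was 0.91. Peg10, a retrotransposon-derived gene needed in the placenta, rose from 0.0868 and 0.353 TPM to between 2.08 and 2.2 TPM. Igf2 read 9.21, 14.6 and 11.8 TPM against 6.41 and 4.51 TPM (log2 0.99, adjusted p = 0.0436). This last call did not hold with the replicate number as a block (adjusted p = 0.0568). It was also lost without the filter on low values (0.0785) and with quantile normalization (0.259). Leaving out double knockout library 2 or 3 ended it too (highest adjusted p 0.13). Without PrE control 3 the log2 difference of Igf2 was 1.20, and without the averaged PrE control 0.77.

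Among the 4 genes that fell, Igf2r fell most. It read 53.9, 67.2 and 49 TPM in the double knockout PrE and 274 and 228 TPM in the controls (log2 -2.13 ± 0.31, adjusted p = 0.000213). Impact read 309, 464 and 374 TPM against 1338 and 898 TPM (log2 -1.54 ± 0.30, adjusted p = 0.00181). Both had been higher in wild-type PrE than in wild-type Epi. Leaving out PrE control 3 raised the adjusted p of Impact to 0.0654. Rian read 19.5, 24.7 and 29 TPM against 46.7 and 42.1 TPM (log2 -0.85, adjusted p = 0.0404). That call was lost on leaving out any of the double knockout libraries (highest adjusted p 0.121). Mcts2, a retrogene within an intron of H13, read 34.5, 35.2 and 26.2 TPM against 53.7 and 51.5 TPM (log2 -0.71, adjusted p = 0.0242). Without double knockout library 3 its adjusted p was 0.0915. The groups of both were separate, but leaving out either PrE control ended both calls (highest adjusted p 0.192 for Rian and 0.126 for Mcts2).

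The double knockout effect in PrE was tested against that in Epi. It differed for 4 of 25 members, with 1 effect higher in PrE and 3 lower, against 19.1% of all genes tested (15.0% higher and 4.16% lower). The PrE effect was lower by 2.75 on the log2 scale for Igf2r (adjusted p = 0.000574), by 1.62 for Rian (adjusted p = 0.00941) and by 1.30 for Grb10 (adjusted p = 0.036). It was higher by 0.88 for H19 (adjusted p = 0.029), a call lost with quantile normalization (0.43, adjusted p = 0.282) and without the filter on low values (adjusted p = 0.0565). For Grb10 the PrE libraries read 32.6, 34.9 and 40.4 TPM against 47.9 and 54.7 TPM, which did not pass within PrE. Without Epi control 2, 2 members passed. The call for Grb10 was lost on leaving out any of 8 libraries (highest adjusted p 0.125) and that for H19 on leaving out any of 6 (highest adjusted p 0.0997). Trophoblast markers in PrE summed to 2242 to 2332 TPM in the double knockout and 637 to 908 TPM in the controls, where Cdx2, Elf5, Hand1 and Tpbpa were listed at 0. PrE markers summed to 7909 to 10166 TPM against 6184 to 6823 TPM. Their part in these differences was not tested.

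In the screen, the Suz12 knockout raised 12 and lowered 2 of 24 members, the highest count among the 39 knockouts tested. Of all genes, 14.5% rose and 7.42% fell (21.9% together). The member median was 0.80, against 0.16 over all genes. Suz12 itself read 4.02, 5.49 and 3.98 TPM against 31.5, 26 and 19.1 TPM in the batch 2 controls (log2 -2.25, adjusted p = 9.11e-08). Here 8 of 14 paternal members rose and 2 fell, as did 3 and 0 of 9 maternal members.

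The neighbours of distal chromosome 7 again stood out by size. Phlda2 read 5570, 5292 and 5307 TPM in the Suz12 knockout against 355, 360 and 286 TPM, a 16.1-fold ratio of means (log2 4.02 ± 0.13, adjusted p = 6.45e-50). Cdkn1c read 429, 501 and 453 TPM against 7.22, 16 and 10.6 TPM, a 40.9-fold ratio (log2 5.30 ± 0.44, adjusted p = 1.74e-19). Slc22a18 read 76.4, 60.6 and 75.8 TPM against 0.94, 3.31 and 3.26 TPM, a 28.3-fold ratio (log2 4.44 ± 0.76, adjusted p = 1.32e-06). In all 3 genes the libraries of each group were close together and far from the other group. Igf2 read 52.1, 41.2 and 46.9 TPM against 13.7, 9.67 and 13.1 TPM (log2 1.87, adjusted p = 0.00014). H19 read 711, 748 and 753 TPM against 548, 563 and 547 TPM, which did not pass (log2 0.42, adjusted p = 0.07) although the groups did not overlap. Kcnq1ot1 rose from 0.42 to 0.544 TPM to 1.29 to 1.61 TPM (adjusted p = 0.000161).

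Several paternal genes outside the distal chromosome 7 clusters also rose. Peg3, a zinc finger gene that affects fetal growth, read 30.9, 33.5 and 31 TPM against 5.94, 6.68 and 8.82 TPM (log2 2.02, adjusted p = 1.39e-06). Peg10 read 9.65, 7.11 and 11.3 TPM against 0.601, 1.24 and 0.223 TPM (log2 2.64, adjusted p = 5.51e-07). Its neighbour Sgce, a sarcoglycan gene, read 24, 41.7 and 22.7 TPM against 5.14, 2.47 and 2.08 TPM (log2 2.86, adjusted p = 0.00214). These 3 genes showed no overlap between groups, though the Sgce call was lost with a pseudocount of 0.1 (adjusted p = 0.0666). Ndn, a growth suppressor gene of the Prader-Willi cluster, read 9.69, 6.77 and 21.9 TPM against 0.1, 1.87 and 0.697 TPM (log2 2.82, adjusted p = 0.00103). Plagl1, a zinc finger gene, read 1.16, 4.09 and 2.7 TPM and was listed at 0 in all 3 controls. Impact and the signalling gene Gnas also rose, by 1.22 and 0.97. The 2 that fell were Mcts2, at 18.7, 14.5 and 26.3 TPM against 66.1, 77.2 and 40.1 TPM (log2 -1.57, adjusted p = 0.00171), and Usp29, a neighbour of Peg3 that was near 1 TPM in the controls.

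The wider lists moved too. Of 20 other imprinted genes tested, 7 rose and 4 fell in the Suz12 knockout. Ascl2, a trophoblast transcription factor gene of the Kcnq1ot1 cluster that is also one of the trophoblast markers, was at 185 to 219 TPM against 4.59 to 8.74 TPM. Th and Dio3 were at 9.71 to 15.5 TPM and 5.49 to 7.35 TPM and were listed at 0 in every control. Of 5 noncanonical genes Slc38a4, an amino acid transporter gene, rose, from 63.7 to 84.9 TPM to 151 to 157 TPM. Of 19 maintenance factors 5 fell, including Zfp57, at 4.02 to 5.67 TPM against 16.4 to 19 TPM (adjusted p = 0.00335). Trophoblast markers summed to 16863 to 17332 TPM against 4348 to 4520 TPM, with 10 of 16 higher and 3 lower. Their part in the changes of the imprinted genes was not tested.

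**Figure D2:**
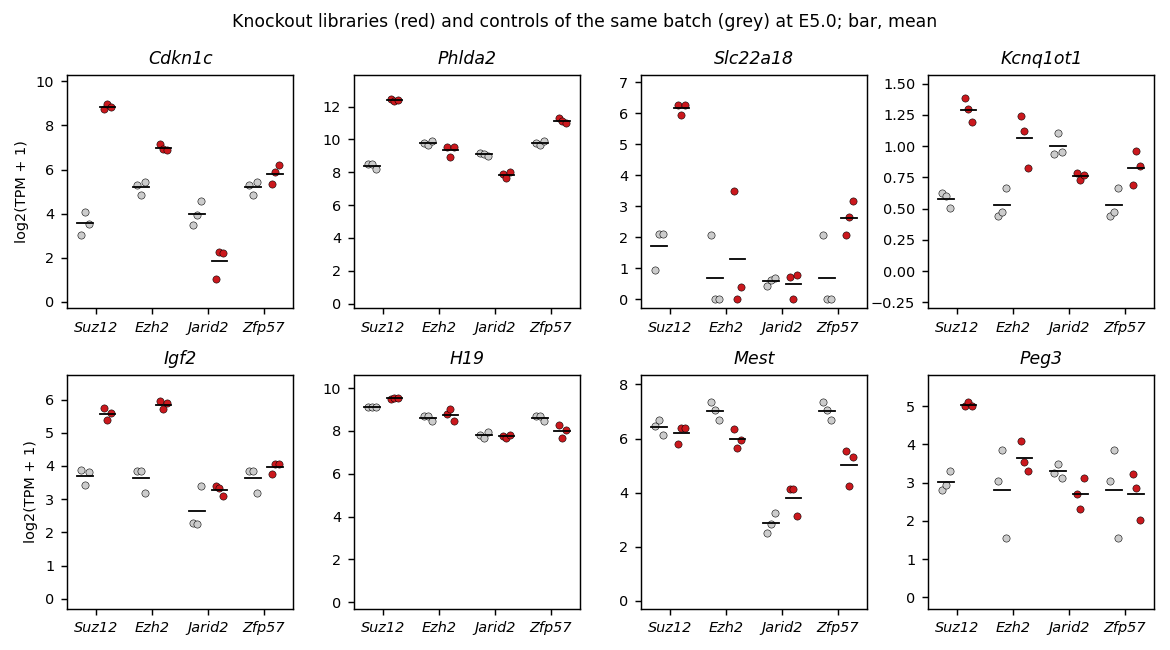
Levels of imprinted genes in the screen for the Suz12, Ezh2, Jarid2 and Zfp57 knockouts beside the controls of their own batch, as log2(TPM + 1), with a point for each library and a bar at the mean. Ezh2 and Zfp57 share the same 3 controls. Phlda2 is higher in the Suz12 and Zfp57 knockouts and lower in the libraries labelled Jarid2 and in the Ezh2 knockout.

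The Ezh2 knockout raised 5 and lowered 2 of 21 members, where 12.3% of all genes rose and 14.5% fell (26.9% together). The member median was 0.34, beside -0.01 over all genes. Ezh2 read 8.73, 21.6 and 14.7 TPM against 37, 59.7 and 48.6 TPM in the batch 5 controls (adjusted p = 4.42e-05). Igf2 read 60.7, 51.1 and 58.7 TPM against 13.3, 13.4 and 8.11 TPM (log2 2.22 ± 0.40, adjusted p = 5.67e-06). Cdkn1c read 141, 120 and 118 TPM against 38.2, 28 and 42.9 TPM (log2 1.78 ± 0.44, adjusted p = 0.000873). Grb10 read 54.9, 57.9 and 51.8 TPM against 18.7, 23.6 and 13.7 TPM (log2 1.54, adjusted p = 0.0114). All 3 were separate from the controls. Igf2r read 6.03, 8.25 and 7.03 TPM against 4.59, 3.18 and 2.08 TPM (log2 0.95, adjusted p = 0.00408). In the Suz12 Eed double knockout, Igf2r fell in PrE. In Epi of that double knockout it read 18.9, 16.8 and 32.4 TPM against 15.2, 9.24 and 18.6 TPM, with overlap and no call. Zdbf2 read 7.83, 1.49 and 1.7 TPM against 0.659, 1.12 and 0.454 TPM (adjusted p = 0.0146).

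Phlda2 went the other way in the Ezh2 knockout. It read 737, 485 and 740 TPM against 870, 813 and 951 TPM (log2 -0.45 ± 0.13, adjusted p = 0.00686). Mest read 80.3, 48.5 and 60.2 TPM against 163, 132 and 101 TPM (log2 -1.05, adjusted p = 0.0212). Both were below the controls in every library. The Phlda2 call was lost without Ezh2 knockout library 2 (adjusted p = 0.207), the Mest call without control 1 or knockout library 2 or 3 (highest 0.101), and the Grb10 and Igf2r calls without control 3 (0.0609 and 0.0591). PrE markers summed to 3740 to 4095 TPM in the Ezh2 knockout against 931 to 1095 TPM, with 9 of 11 higher, and trophoblast markers to 6305 to 8556 TPM against 3557 to 3599 TPM. Their part in these results was not tested. Of 15 other imprinted genes tested, 3 rose and 3 fell.

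In the libraries labelled Jarid2 knockout, Jarid2 transcript overlapped with the controls, at 5.55, 7.71 and 4.61 TPM against 7.36, 6.83 and 6.98 TPM (adjusted p = 1). In these libraries 0 of 18 members were higher and 2 were lower, where 1.12% of all genes were higher and 0.706% lower (1.83% together). Cdkn1c read 1.06, 3.85 and 3.58 TPM against 10.2, 14.2 and 22.7 TPM (log2 -2.15 ± 0.44, adjusted p = 0.000472). Phlda2 read 238, 199 and 262 TPM against 565, 550 and 513 TPM (log2 -1.22 ± 0.13, adjusted p = 3.72e-12). The groups did not overlap in either gene, and both fell where the Suz12 knockout had raised them. Mest read 16.4, 16.3 and 7.71 TPM against 4.68, 6.07 and 8.48 TPM and did not pass (adjusted p = 0.288). The sums of trophoblast markers overlapped, at 8697 to 9123 TPM against 8710 to 8946 TPM. PrE markers summed to 1130 to 1247 TPM against 1724 to 1860 TPM and epiblast markers to 450.1 to 463 TPM against 358 to 376 TPM, and their part in these results was not tested.

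The Zfp57 knockout called 3 imprinted genes of 23 tested, 1 higher and 2 lower, where 5.37% of all genes rose and 11.5% fell (16.8% together). The share of members called, 13%, was thus below the background. Without batch 5 control 1, 6 members passed, and after quantile normalization 8 did. The member median was 0.32, beside -0.16 over all genes. Zfp57 itself read 16.2, 2.21 and 5.08 TPM against 22.5, 21.9 and 7.71 TPM (log2 -1.27, adjusted p = 0.0436), and the groups overlapped. Comparisons of Zfp57, Ezh2 and Kdm6b share the same batch 5 controls.

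Mest read 45, 18 and 38.7 TPM in the Zfp57 knockout against 163, 132 and 101 TPM (log2 -1.999 ± 0.36, adjusted p = 1.21e-05). Phlda2 read 2503, 2204 and 2020 TPM against 870, 813 and 951 TPM (log2 1.35 ± 0.13, adjusted p = 3.43e-14). H19 read 311, 200 and 261 TPM against 415, 411 and 355 TPM (log2 -0.63 ± 0.17, adjusted p = 0.00469). In all 3 the groups were separate. Mest was also lower in the Ezh2 and Kdm6b knockouts, the other knockouts tested against these controls. The median of batch means of Mest over all screen controls was 64.5 TPM. The Mest window shown above, 1 of 3 for this gene, was picked for its number of hexamer copies. It holds 2, another Mest window holds 0, and that of Phlda2 holds 0. Any link of the hexamer to these changes was not tested. The H19 call was lost without knockout library 2 (adjusted p = 0.11) and in a fit of batch 5 alone (0.0631). Grb10 read 39.6, 39.2 and 35.4 TPM against 18.7, 23.6 and 13.7 TPM, without overlap but short of the threshold (log2 1.02, adjusted p = 0.145).

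Of the other members with the hexamer in a window, Mcts2, Meg3, Nap1l5 and Zdbf2 were tested in this knockout with no call, and Plagl1 and Zim1 were too low to be tested. Of 16 other imprinted genes 4 fell (Blcap, Dhcr7, H13 and Nap1l4), and of 5 noncanonical genes Sfmbt2 and Slc38a4 fell, the latter at 9.68 to 24.7 TPM against 38.1 to 65.1 TPM. Of 18 maintenance factors 3 fell: Zfp57 itself, Daxx and Dnmt3l, a co-factor of de novo DNA methylation, at 8.88 to 35.7 TPM against 56.4 to 73.2 TPM. Trophoblast markers summed to 5085 to 5691 TPM against 3557 to 3599 TPM and PrE markers to 1256 to 1631 TPM against 931 to 1095 TPM. Their part in these results was not tested.

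In the 3 libraries labelled Zbtb17 knockout at E5.0 in the screen, Zbtb17 transcript overlapped with the batch 6 controls. Zbtb17 read 6.6, 0.0122 and 14.2 TPM against 3.43, 0.312 and 4.21 TPM (adjusted p = 0.487). In these libraries 3 members were higher and 2 lower of 19 tested, where 10.5% of all genes were higher and 19.9% lower (30.4% together). H19 read 840, 851 and 364 TPM against 200, 272 and 198 TPM (log2 1.53 ± 0.17, adjusted p = 1.36e-12). Rian read 22.4, 19.9 and 26.1 TPM against 7.52, 6.87 and 12.2 TPM (log2 1.30, adjusted p = 0.0333). Both were above the controls in every library. Slc22a18 read 9.74, 20.2 and 4.19 TPM against 0, 4.69 and 0 TPM (adjusted p = 0.00568) with overlap.

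The 2 that were lower were Mcts2, at 18.2, 11.8 and 0 TPM against 50.4, 33.5 and 40.8 TPM (log2 -2.74, adjusted p = 2.47e-08), and Grb10, at 16.4, 5.22 and 0.0644 TPM against 19.4, 17.9 and 23 TPM (log2 -2.11, adjusted p = 0.000316). Library 3 was lowest for both. Without it the Grb10 difference was -1.01 (adjusted p = 0.109) and that of Mcts2 -1.42, and the Rian call was lost without any of 4 libraries (highest adjusted p 0.11). With batch 6 fitted alone H19 was the 1 member that passed, and without batch 6 control 1, 3 members did. Trophoblast markers summed to 12073 to 14381 TPM against 3501 to 4315 TPM, with 10 of 14 higher, and their part in these results was not tested.

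Degradation of ZBTB17 with dTAG at E5.0 changed 3 of 21 members, 2 higher and 1 lower, where 7.20% of all genes rose and 4.49% fell (11.7% together). The transcript of Zbtb17 read 5.77 to 6.94 TPM against 1.67 to 5.2 TPM, which says nothing of the protein that the ligand removes. H19 read 236, 259 and 257 TPM against 97.2, 121 and 113 TPM (log2 1.18 ± 0.12, adjusted p = 0.000144). Phlda2 read 259, 231 and 249 TPM against 565, 533 and 546 TPM (log2 -1.15 ± 0.08, adjusted p = 1.92e-05). In each the libraries of a group lay close together. Cdkn1c read 48.3, 97.9 and 69.2 TPM against 32.4, 26.8 and 37.4 TPM (log2 1.09, adjusted p = 0.0216), a call lost on leaving out control 55 or 56 or treated library 2 or 3 (highest adjusted p 0.0827). Snrpn, an RNA-processing gene of the Prader-Willi cluster that shares exons with Snurf, read 341, 335 and 327 TPM against 390, 51.8 and 55.2 TPM. Its partner Snurf read 204, 208 and 185 TPM against 282, 687 and 639 TPM, so the split of reads between them is uncertain. Zfp57 was at 45.9 to 56 TPM against 15 to 22 TPM (adjusted p = 0.00284). PrE markers summed to 2065 to 2165 TPM against 658 to 798 TPM, and their part in these results was not tested.

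At E4.5, 0 of 7 members tested passed in the Zbtb17 table, where 0.131% of all genes did. With limma, 1 member was under an unadjusted p of 0.05. Zbtb17 was listed at 0 in every control, so it does not check the label, and Pou5f1, the defining epiblast marker, was listed at 0 in all 3 knockout libraries. Phlda2 read 694, 726 and 1324 TPM against 311, 239 and 63.4 TPM (log2 2.37, adjusted p = 0.236). Igf2r read 55.3, 57.8 and 39.8 TPM against 84.6, 90.9 and 74.5 TPM (adjusted p = 0.803), and Mcts2 read 0, 0 and 112 TPM against 69.4, 169 and 73.2 TPM (adjusted p = 0.631). Phlda2 and Igf2r had separate groups and Mcts2 did not. H19 was listed at 0 in all controls and at 1.2, 0 and 3.11 TPM in the knockout libraries. Trophoblast markers summed to 565 to 845 TPM against 60 to 227 TPM, and their part was not tested.

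In Zbtb17 knockout EB, H19 was higher on all 4 days. It read 84.7 and 82.6 TPM against 20.2 and 21 TPM on day 0, and 610 and 596 TPM against 94.8 and 92.7 TPM on day 1 (log2 2.67 ± 0.04, adjusted p = 1.34e-12). On day 2 it read 359 and 353 TPM against 84.3 and 81.4 TPM, and on day 3 it read 218 and 217 TPM against 50.2 and 52.6 TPM (log2 2.06 ± 0.04, adjusted p = 7.14e-12). The knockout mean stood 4.06-fold to 6.43-fold above that of the wild type. Zbtb17 was at 9.89 to 10.1 TPM against 20.8 to 23.4 TPM on day 1 (adjusted p = 1.9e-06) and at 13.4 to 13.7 TPM against 17.3 to 18 TPM on day 3 (adjusted p = 0.00211). On day 0 Zbtb17 read 0.287 and 0.249 TPM against 0.345 and 0.356 TPM. Both groups were under 1 TPM, so the knockout label was not checked on that day. The 2 libraries of a group were nearly alike, so small differences passed.

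**Figure D3:**
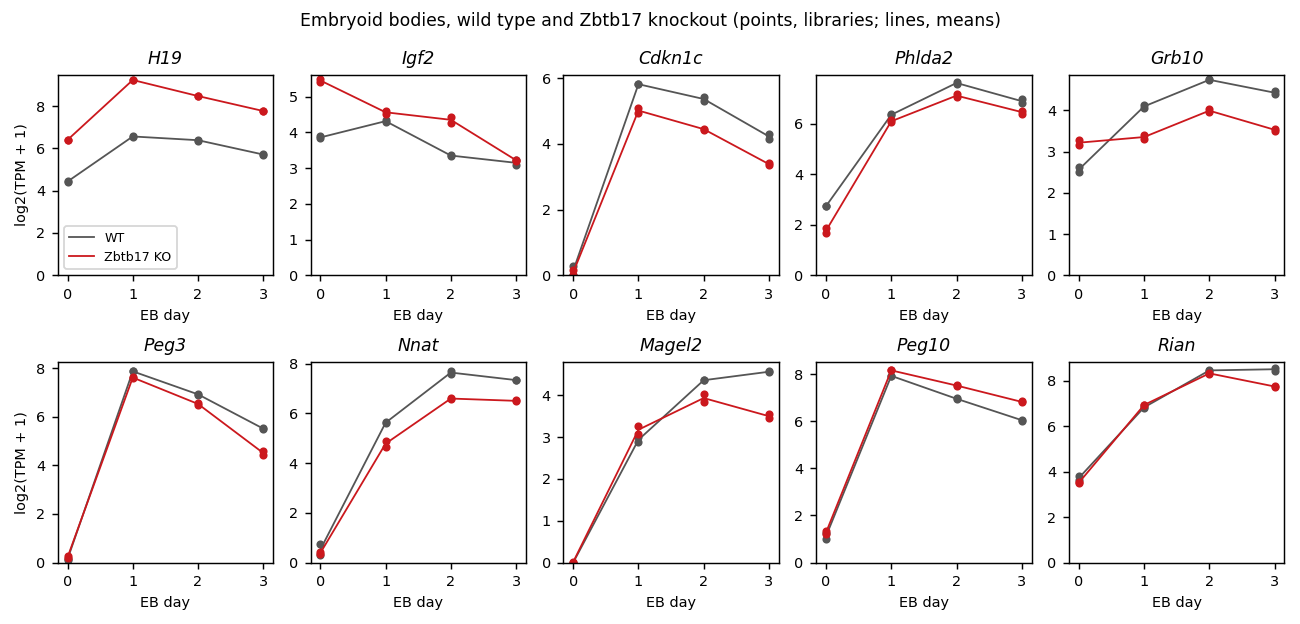
Levels of imprinted genes in wild-type and Zbtb17 knockout EB over days 0 to 3, as log2(TPM + 1) on the vertical axis and day on the horizontal axis, with a point for each of 2 libraries per group and lines through the means. H19 is higher in the knockout on every day, while Cdkn1c and Nnat are lower from day 1 on.

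On day 1, 6 members were higher and 8 lower of 28 tested, where 16.5% of all genes were higher and 20.0% lower (36.5% together). Without wild-type day 1 library 1, 9 members passed on day 1. On day 2, 6 were higher and 7 lower of 26, beside 17.9% and 24.9% of all genes (42.8% together). On day 3, 6 were higher and 13 lower of 26, beside 20.9% and 34.3% (55.1% together). On day 0, 8 were higher and 7 lower of 18, beside 47.8% and 12.0% (59.8% together). The day 0 libraries stood apart, with Pou5f1 at 13.4 to 21.5 TPM against at least 1719 TPM on later days. The 10 highest genes held 33.2% to 36.0% of TPM on day 0 and 6.74% to 8.84% on later days. Counts in EB fell steeply when a 2-fold minimum, chosen after seeing the data, was added: 2 members on day 1, and 3 on each other day.

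Genes lower in the knockout on each of days 1 to 3 were Cdkn1c, Nnat, Grb10, Zdbf2, Phlda2 and Peg3. Phlda2 was lower by 0.26, 0.50 and 0.43 on the log2 scale and Peg3 by 0.26, 0.40 and 1.00. Cdkn1c read 29.8 and 33 TPM against 55.6 and 55.4 TPM on day 1 (log2 -0.80) and 9.28 and 9.61 TPM against 18.8 and 16.7 TPM on day 3 (log2 -0.84). Nnat read 91 and 87.9 TPM against 160 and 161 TPM on day 3 (log2 -0.83). Grb10 read 8.83 and 9.61 TPM against 16.4 and 15.8 TPM on day 1 (log2 -0.74) and was also lower on day 2 (log2 -0.75) and day 3 (log2 -0.90). The groups were separate for each. Zdbf2, a paternal gene, read 15.6 and 15.7 TPM against 29.6 and 28.4 TPM on day 1 (log2 -0.85). It was at 10.8 and 12.3 TPM against 19 and 18.2 TPM on day 2 (log2 -0.65). With a pseudocount of 0.1 the Cdkn1c calls were lost on all 3 days (adjusted p = 0.21, 0.131 and 0.117). Quantile normalization ended them too (adjusted p = 0.252, 0.167 and 0.257). It also ended the Nnat call on day 1 (adjusted p = 0.0639). Mest and Peg10 were higher on each of these days, Mest by 0.48, 0.54 and 0.71 and Peg10 by 0.23, 0.56 and 0.78. The Mest call on day 1 was lost with a pseudocount of 0.1 (adjusted p = 0.306) and with quantile normalization (adjusted p = 0.194). Igf2 was higher on day 0 (44.3 and 41.5 TPM against 13.8 and 13.2 TPM, log2 1.60), day 1 (21.9 and 23.4 TPM against 18.5 and 19.3 TPM, log2 0.25, adjusted p = 0.0235) and day 2 (18.2 and 20.7 TPM against 9.37 and 9.05 TPM, log2 1.00), and was not called on day 3.

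On day 0 the members that differed most after H19 and Igf2 were Gnas, Phlda2 and Mcts2. Gnas read 39.5 and 42.7 TPM against 10.5 and 23.7 TPM (log2 1.32). Phlda2 read 2.16 and 2.65 TPM against 5.61 and 5.71 TPM (log2 -0.97) and was lower on days 1, 2 and 3 as well, at 90.5 and 83.5 TPM against 112 and 124 TPM on day 3 (log2 -0.43). The groups of both were separate. Mcts2 read 41.7 and 43.9 TPM against 88.6 and 77.5 TPM on day 0 (log2 -0.94) and was higher on day 3 (log2 0.41). Meg3 read 8.21 and 4.7 TPM against 3.05 and 2.54 TPM on day 0 (log2 0.94). Mirg, another RNA of that cluster, read 6.17 and 4.99 TPM against 11.1 and 11.2 TPM (log2 -0.89), so RNAs of 1 cluster differed in opposite directions.

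Other members differed with the day. Ndn read 19.3 and 18.2 TPM against 9.72 and 7.99 TPM on day 1 (log2 1.01) and 30 and 35.9 TPM against 35.8 and 28.8 TPM on day 3. Magel2, its neighbour, was slightly higher on day 1 (log2 0.24) and read 10.7 and 9.97 TPM against 22.8 and 22.5 TPM on day 3 (log2 -1.06). Peg3 read 22.9 and 20.7 TPM against 45.2 and 44 TPM on day 3 (log2 -1.004). Dlk1, a Notch-like ligand gene, read 15.2 and 14.1 TPM against 7.9 and 7.05 TPM on day 2 (log2 0.89) and was not called on day 1. Plagl1 read 3.85 and 3.87 TPM against 6.93 and 7.79 TPM on day 3 (log2 -0.78). Gnas read 300.3 and 289 TPM against 490 and 535 TPM on day 3 (log2 -0.80), a call lost without wild-type library 2 or knockout library 2 (highest adjusted p 0.0658). The knockout effect thus went from higher to lower for Magel2, and grew more negative for Peg3. Between days 3 and 1 the effect differed for 14 of 28 members, 5 upward and 9 downward, where 16.8% of all genes differed upward and 22.2% downward (39.0% together). Magel2 differed by -1.30, Ndn by -0.98, and 3 maternal RNAs of the Dlk1-Meg3 cluster by -0.92 (Mirg), -0.86 (Rian) and -0.61 (Meg3), while Dlk1 of the same cluster differed by 0.74.

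Wild-type EB changed most members between days 1 and 3 on their own: 10 rose and 15 fell of 28, where 31.9% of all genes rose and 37.9% fell (69.8% together). Peg3 read 45.2 and 44 TPM on day 3 against 232 and 234 TPM on day 1 (log2 -2.36), and Usp29, Peg10 and Cdkn1c fell by 2.04, 1.88 and 1.59. Ndn, Mirg, Nnat, Rian and Magel2 rose by 1.63 to 1.75. Zfp57 itself fell in the wild type from 393 and 406 TPM on day 1 to 33.9 and 38.7 TPM on day 3, and stood at 147 and 157 TPM in the knockout on day 3 (log2 2.04, adjusted p = 1.19e-08). Of 19 maintenance factors 1 was higher and 13 were lower in the knockout on day 1, and 9 were higher and 6 lower on day 3. Trophoblast markers summed to 388 to 405 TPM in the knockout against 65.5 to 65.9 TPM on day 1, with 13 of 14 higher and with Elf5, Prl3d1 and Tpbpa listed at 0. They stood at 5.44 to 6.42 TPM against 2.15 to 2.56 TPM on day 0, 424 to 436 TPM against 107 to 113 TPM on day 2 and 366 to 381 TPM against 248 to 254 TPM on day 3. Blood and stroma markers summed to 352 to 355 TPM against 144 to 148 TPM on day 0, 204 to 208 TPM against 54.3 to 58.7 TPM on day 2 and 119 to 121 TPM against 21.7 to 23.2 TPM on day 3, where 6 of 6, 6 of 7 and 6 of 7 tested were higher, among them 3 collagen genes. On day 1 they were at 158 to 159 TPM against 179.4 TPM. The part of either list in the rise of H19 was not tested.

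GSK-J4 at E5.0 raised 6 and lowered 3 of 20 members, where 16.6% of all genes rose and 11.7% fell (28.3% together). The member median was -0.01, beside 0.12 over all genes, and without control 3, 5 members passed. Phlda2 read 182, 211 and 192 TPM in treated Epi and 1241, 1192 and 1111 TPM in the controls (log2 -2.59 ± 0.09, adjusted p = 2.46e-06). Mest read 20.6, 18.7 and 16.1 TPM against 87.3, 88.8 and 92.1 TPM (log2 -2.22 ± 0.18, adjusted p = 0.000131). H19 read 176, 211 and 190 TPM against 256, 299 and 289 TPM (log2 -0.55, adjusted p = 0.00931). Treated libraries were below all controls in these 3 genes.

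The members that rose were led by Rian, at 13, 24.4 and 15.1 TPM against 2.83, 1.68 and 3.01 TPM (log2 2.37 ± 0.40, adjusted p = 0.00415). Impact read 87.3, 85.7 and 130 TPM against 28, 16.8 and 21.5 TPM (log2 2.14 ± 0.25, adjusted p = 0.000781). Grb10 read 36.5, 63.5 and 32.9 TPM against 10.5, 8.25 and 10.9 TPM (log2 2.00 ± 0.32, adjusted p = 0.00291). None of these overlapped with the controls, nor did Igf2r, at 24.6, 18.6 and 19.8 TPM against 8.69, 7.96 and 7.58 TPM (log2 1.27, adjusted p = 0.0137). Zrsr1, a splicing factor retrogene, read 3.87, 15.6 and 8.09 TPM against 1.09, 2.22 and 2.05 TPM (log2 1.72, adjusted p = 0.0466). Meg3, the non-coding RNA that names its cluster, read 38.7, 16.6 and 37.6 TPM against 9.21, 14.2 and 11.9 TPM (log2 1.25, adjusted p = 0.0448). Each of Igf2r, Zrsr1 and Meg3 lost its call on leaving out any 1 of the controls (highest adjusted p 0.0676, 0.19 and 0.171).

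Igf2r, Rian, Impact, Grb10 and Meg3 were also higher in wild-type PrE than in wild-type Epi, and Phlda2, Mest and H19 were lower there. PrE markers moved with this comparison: they summed to 6174 to 7111 TPM in GSK-J4 treated Epi against 760 to 774 TPM in the controls, where Gata6 and Hnf4a were listed at 0, and 14 of 14 tested were higher. Epiblast markers summed to 575 to 731 TPM against 1585 to 1639 TPM, and trophoblast markers to 3133 to 3273 TPM against 4043 to 4321 TPM. Their part in the changes of the imprinted genes was not tested. Of 19 other imprinted genes 4 rose and 2 fell. Cd81, a tetraspanin gene, was at 252 to 337 TPM against 96.1 to 122 TPM.

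At E4.5, 0 of 16 members passed with GSK-J4, where 0.611% of all genes rose and 0.541% fell (1.15% together), and with limma 1 was under an unadjusted p of 0.05. H19 read 1.89, 0.146 and 2.73 TPM against 7.79, 30.1 and 27.4 TPM (log2 -3.10, adjusted p = 0.124). Mest read 1.38, 1.53 and 9.09 TPM against 21.7, 8.84 and 9.34 TPM (adjusted p = 0.448), and Snrpn read 7.7, 23.8 and 13.1 TPM against 2.96, 0.918 and 13.2 TPM (adjusted p = 0.547). The groups were separate for H19 and overlapped for Mest and Snrpn. Whether the effect at E4.5 differs from that at E5.0 was not tested, since the tables were normalized separately.

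**Figure D4:**
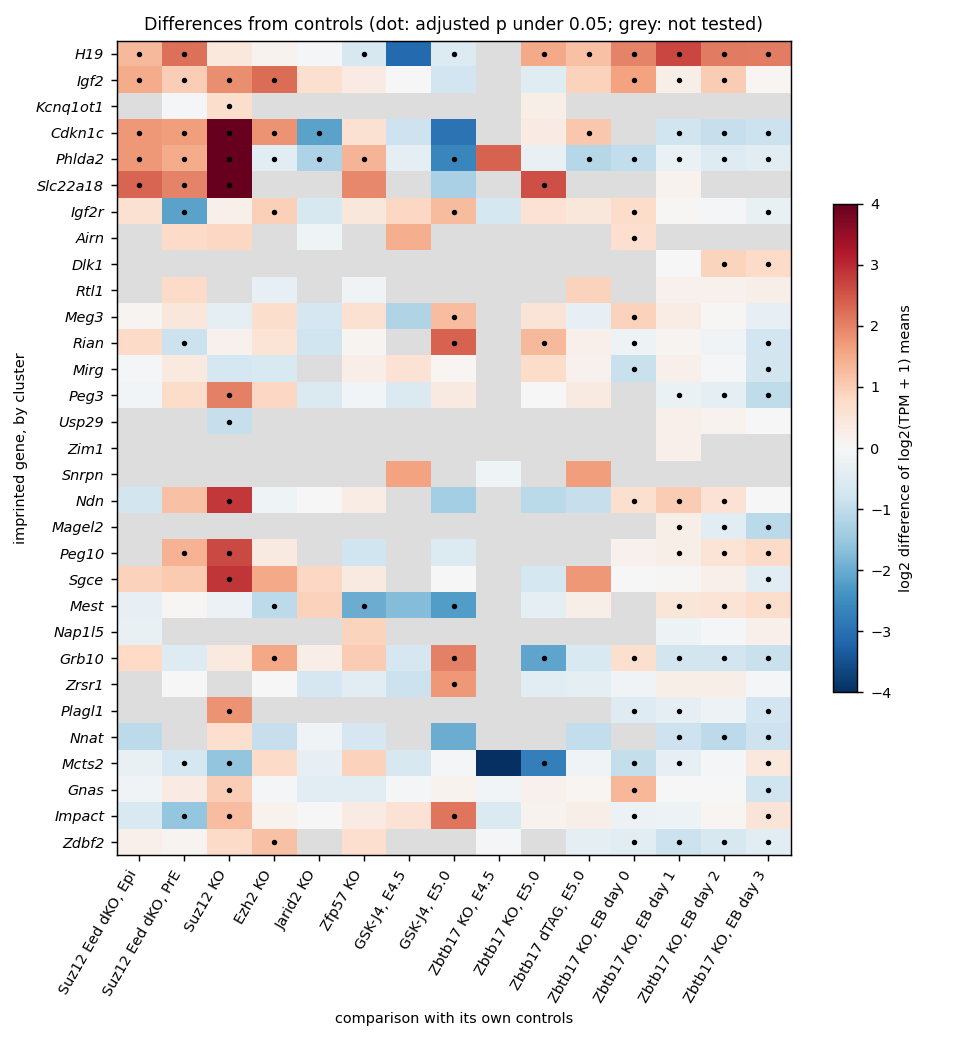
Log2 differences of imprinted genes (rows) in the Suz12 Eed, GSK-J4, Zbtb17, Zfp57, Suz12, Ezh2 and Jarid2 comparisons (columns), perturbed minus control on log2(TPM + 1), with grey cells where a gene was not tested and dots where the adjusted p was under 0.05. Colours are capped at 4 in either direction. The Phlda2 row runs from a rise of 4.02 in the Suz12 knockout to a log2 difference of -2.59 with GSK-J4.

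Across the 11 embryo comparisons named above, 22 members were called at least once, 6 were tested with no call and 3 (Dlk1, Zim1 and Magel2) were never tested because of low levels. The 6 with no call were Airn, Rtl1, Mirg, Snrpn, Nap1l5 and Nnat. Phlda2 was tested in all 11, rising in 4 and falling in 4. H19 rose in 4 and fell in 2 of 10, Igf2 rose in 4 and fell in 0 of 10, and Mest fell in 3 and rose in 0 of 10. With the 4 EB days added, 27 of 31 members were called at least once. These counts cover comparisons that share controls, so they are not independent.

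The other 34 screen knockouts gave 92 member calls in 707 tests, 42 higher and 50 lower. This is 13% of member tests, beside 8.79% of all gene tests. Levels of the targeted transcripts are not given here for these knockouts, so their labels stand unchecked. The largest counts were in the Elf5 knockout, with 10 of 22 members (25.0% of all genes), Nelfb with 9 of 21, 6 higher and 3 lower (11.7% and 9.70% of all genes), the batch 7 Bend3 knockout with 8 of 19 (38.8%) and Cxxc1 with 7 of 21 (21.4%). Batch 7 held 2 controls, and its Bend3 libraries correlated with each other at r = 0.866 to 0.877. The knockouts of Snai1, Ss18, Junb, Mbd3, Ovol2, Sox4 and Zfp281 gave 0 member calls with limma, where between 0.476% (Junb) and 2.49% (Ss18, with 1.46% higher) of all genes passed. Knockouts of batch 2 (Elf5, Cxxc1, Ets2, Ascl2, Lmo2, Mcrs1 and Suz12) share their controls.

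**Figure D5:**
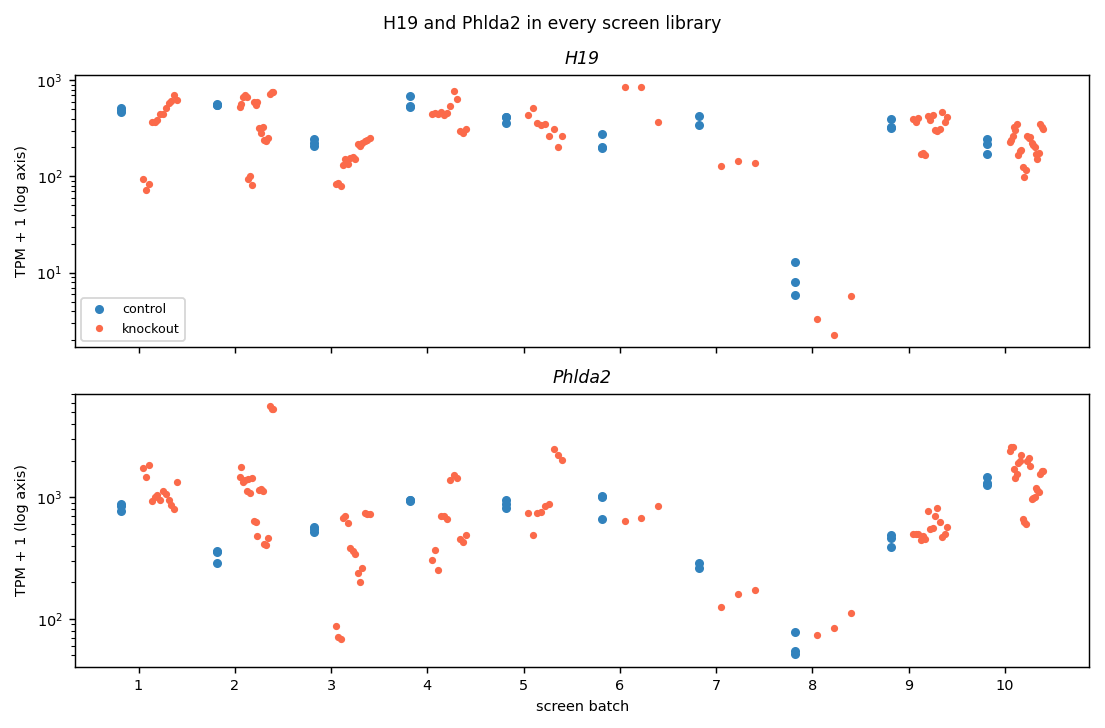
Levels of H19 and Phlda2 in the screen libraries by batch (horizontal axis), as TPM + 1 on a log axis, with a point for each library and controls and knockouts in separate colours. Controls of batch 8 are lowest for both genes, at batch means of 7.94 and 59.99 TPM, and the highest Phlda2 libraries are those of the Suz12 knockout.

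Over all 39 screen knockouts tested, Phlda2 was called in 23, with 14 rises and 9 falls, and H19 in 15, with 3 rises (Fos, Mta2 and the libraries labelled Zbtb17) and 12 falls. Grb10 rose in 1 and fell in 8, Cdkn1c rose in 7 and fell in 2, Impact rose in 7 and fell in 1, and Mest rose in 2 and fell in 5. In all there were 123 member calls in 812 member tests (15.1%), beside 10.1% of all gene tests, and 85 of them were in genes other than H19 and Phlda2. Snrpn had no row there, and Rtl1 and Mirg were tested with no call.

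Elf5, a trophoblast transcription factor gene, had the most member calls among these 34 knockouts. H19 was at 80.1 to 100.1 TPM in its knockout against 547 to 563 TPM (log2 -2.59), and Phlda2 was at 1076 to 1438 TPM against 286 to 360 TPM (log2 1.97). Impact was at 96.8 to 108 TPM against 14.8 to 23.2 TPM (log2 2.43). Nelfb encodes a subunit of the complex that pauses RNA polymerase II. In the Nelfb knockout, H19 fell by 2.57, Grb10 fell by 2.79 and Cdkn1c was at 96 to 138 TPM against 14.1 to 19.4 TPM (log2 2.71). The Atrx knockout, of a chromatin remodeller, had Phlda2 at 67.3 to 86.1 TPM against 513 to 565 TPM (log2 -2.86). None of these groups overlapped. PrE markers summed to 1808 to 2003 TPM in the Elf5 knockout against 764 to 809 TPM and to 2323 to 2792 TPM in the Nelfb knockout against 722 to 780 TPM. Epiblast markers summed to 1895 to 1946 TPM in the Elf5 knockout against 968 to 998 TPM, and trophoblast markers to 3001 to 3190 TPM in the Atrx knockout against 8710 to 8946 TPM. Their part in these results was not tested.

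Of the knockouts of other Polycomb and H3K27 factors, Kdm6b gave 4 member calls of 21 (22.7% of all genes), Kdm6a 3 of 21 (9.29%), Cbx2 2 of 20 (1.67%), Rnf2 1 of 21 (1.86%) and Cbx7 1 of 20 (0.959%). Mest was at 23.7 to 29.9 TPM in the Cbx2 knockout and 17.5 to 23.7 TPM in the Rnf2 knockout against 4.68 to 8.48 TPM in their shared batch 3 controls (log2 1.92 and 1.56). The Kdm6b knockout had Mest at 35.9 to 38.5 TPM against 101 to 163 TPM (log2 -1.76) and also lower Nnat, Gnas and, with overlap, Ndn. The Kdm6a knockout had Phlda2 at 252 to 365 TPM against 933 to 941 TPM (log2 -1.63), lower Sgce and higher Nnat. The Mest groups and the Phlda2 groups named here did not overlap. Trophoblast markers summed to 1341 to 1442 TPM in the Kdm6b knockout against 3557 to 3599 TPM, to 5557 to 5935 TPM in the Kdm6a knockout against 3183 to 3469 TPM, and to 4688 to 5462 TPM in the Cbx2 and Rnf2 knockouts against 8710 to 8946 TPM. Their part in these results was not tested.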

How the data were processed

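Smart-seq2 libraries of Epi, PrE and EB were analysed from 7 tables of TPM values that the authors deposited. HISAT2 2.2.1, StringTie 2.2.1, Cufflinks and the build mm10 are named per the submitters' processing notes, without their roles. Read depth is unknown, since TPM keep none. The EB table lists no genes and was read in the row order of the screen table: mean log2 values correlated at 0.893 in that order and at no more than 0.107 when shifted by 1 to 5 places.

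Groups came from the labels. Each table was fitted with limma 3.58.1 in R 4.3.3 on log2(TPM + 1), over all its groups, with Benjamini-Hochberg adjustment within each comparison and a threshold of 0.05. Screen knockouts were compared with controls of their own batch. The fit was tested on simulated data. Aurkb knockout libraries that were nearly alike (r = 0.999) were not tested. Same-numbered libraries deviated together in 1 of 48 comparisons (double knockout in Epi, r = 0.101 to 0.238 for its 3 pairs), where a replicate block left the count at 5. Figures were drawn with matplotlib 3.10.9. Promoters came from RefSeq (GRCm38.p6) and gene positions from GENCODE vM21 on the same build.

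Values in every library are given for members that passed with separate groups and a mean in the higher group of 5 TPM or above, up to 8 a comparison by size of log2 change. Where fewer than 3 passed, the 3 members with the smallest p are given. Targeted genes and a few others are given beyond this rule. All members and lists were chosen with earlier results of these data known. The labels call the replicates biological but name no animals or cultures, so the spread between these samples may be technical. P-values rest on that spread pooled over all groups fitted in a table, not on the compared libraries alone. Groups that vary more than the rest can thus pass too easily. Alternatives were the pseudocount, no filter on low values, quantile normalization, a replicate block, fits of a batch or of the compared groups alone, and each library left out.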

Additional observations from a re-analysis of the deposited data

Results flagged for a closer look

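The double knockout of Suz12 and Eed had effects that differed between PrE and Epi by the limma interaction test. On the log2 scale the PrE effect minus the Epi effect was 0.88 for H19, -2.75 for Igf2r, -1.62 for Rian and -1.30 for Grb10. With quantile normalization the H19 difference was 0.43 and did not pass (adjusted p = 0.282).

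The Zbtb17 knockout effect in EB differed between days 3 and 1 by the same kind of test for 14 members. Day 3 minus day 1, the difference was -0.61 for H19, -0.33 for Igf2r, -0.61 for Meg3, -0.86 for Rian, -0.92 for Mirg, -0.75 for Peg3, -0.98 for Ndn, -1.30 for Magel2 and -0.49 for Sgce. It was 0.74 for Dlk1, 0.54 for Peg10, 0.73 for Mcts2, 0.71 for Impact and 0.40 for Zdbf2. For Zdbf2 the positive value is a smaller fall on day 3.

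Igf2r lay below every control in all 3 Zbtb17 libraries at E4.5 (difference of means -32.4 TPM) and above every control in those labelled Zbtb17 knockout at E5.0 (difference of means 9.75 TPM). This difference was not tested, and the tables were normalized separately.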

How the results depend on the processing

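No result reversed its direction under any alternative run. Counts of members called moved by over 1.5 times in these cases. Without a filter on low values, the difference between PrE and Epi in the double knockout effect gave 2 in place of 4. On EB day 1, a pseudocount of 0.1 gave 7 and quantile normalization 7 in place of 14. The Zfp57 knockout gave 8 after quantile normalization in place of 3. Fits of 1 batch alone gave 6 in place of 2 (libraries labelled Jarid2), 4 in place of 7 (Ezh2) and 1 in place of 5 (libraries labelled Zbtb17 at E5.0). The cause of these shifts was not tested.

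Some alternatives were chosen after seeing the data. With a 2-fold minimum beside the adjusted p, EB days 0, 1, 2 and 3 gave 3, 2, 3 and 3 members in place of 15, 14, 13 and 19, the difference of day 3 from day 1 gave 1 in place of 14, and wild-type EB gave 13 in place of 25. Without batch 7 the Zfp57 knockout gave 5, and with library 1 as the one Zbtb17 library at E5.0 that comparison gave 3, the lone library being assumed to vary like the other groups.

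Leaving out 1 library at a time gave 2 to 4 members for the PrE minus Epi difference, 6 to 9 for PrE, 9 to 11 for EB day 1, 5 to 12 for GSK-J4 at E5.0, 2 to 6 for Zfp57, 5 to 9 for Ezh2 and 3 to 7 for Zbtb17 at E5.0. With the replicate block the counts were 5 in Epi, 9 in PrE, 15 for Suz12, 8 for Ezh2, 4 for Zfp57, 8 for GSK-J4 at E5.0 and 6 for Zbtb17 at E5.0. The block ended 3 calls of single members by limma, namely Igf2 in PrE (adjusted p = 0.0568), and Zrsr1 (0.0507) and Meg3 (0.0757) with GSK-J4. No paired analysis was possible for dTAG because its controls carry other numbers.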
